A study of Drosophila melanogaster with 13 samples.

Results

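Clones of optic lobe cells lacking normal lola function (allele lola[E76], 3 libraries) were compared directly with clones lacking normal nerfin-1 function (allele nerfin-1[159], 3 libraries). These 6 libraries were picked by their genotype labels from 13 samples, of which 9 were RNA libraries, and 3 WT libraries give a reference level here. RNA was measured in Drosophila melanogaster larvae at the wandering L3 stage, with cells isolated by flow cytometry and sorts of several days pooled into 33000 to 105000 cells a library, equal to 15 to 70 ng of RNA. Libraries were made with QuantSeq, in which reads come from the 3′ ends of polyadenylated transcripts. The column names carry the tag 42D for WT and lola[E76] and 2A for nerfin-1[159], so WT shares its tag with only 1 of the mutants. How clones were induced and marked and the sex of the larvae were not stated in the labels or files. No label says that the pools came from separate crosses, so p-values measure the spread between pools.

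The zinc finger proteins Lola and Nerfin-1 act in newborn neurons, and both are known for keeping those neurons from returning to a dividing, stem cell-like state. Optic lobe neurons descend from neuroblasts, neural stem cells that divide asymmetrically to renew themselves and to bud off ganglion mother cells, whose division gives neurons. As they age, medulla neuroblasts switch through a series of transcription factors (Homothorax, Eyeless, Sloppy-paired, Dichaete and Tailless among them) that sets which neurons they make. A second clock, known best from central brain and nerve cord neuroblasts, runs from the RNA-binding protein Imp and the BTB factor Chinmo early to the RNA-binding protein Syncrip (Syp) late. The question was which neuronal and progenitor programmes separate the 2 mutants.

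The mutants differed widely from each other, and some of the differences fell in lists of genes of known programmes. Those lists were chosen with earlier results of these data known, and the ribosomal family was gathered later by symbol. Calls within them therefore describe the listed genes and cannot test whether the differences as a whole follow programmes. Nerfin-1 clones carried higher levels of 9 of 14 medulla temporal factors, 6 of 27 mitotic genes, 5 of 25 Notch pathway genes and 3 of 11 neuroblast factors. Lola clones carried higher levels of most called ion channels and transmitter receptors, all called dpr and DIP surface proteins, 34 ribosomal protein genes and 5 contractile muscle genes. A smaller set of mature-neuron genes, among them the monoamine transporter Vmat, the microtubule protein tau and the synaptic vesicle protein nSyb, was instead higher in nerfin-1 clones. Of 7451 genes with enough counts, 1156 were called, 15.5% of those tested, at an adjusted p below 0.05 in edgeR's quasi-likelihood test with no minimum fold. Of these, 639 were higher in lola clones (8.58%) and 517 in nerfin-1 clones (6.94%). Differences are given below as log2 of lola over nerfin-1, so that negative values mean higher in nerfin-1 clones, with the standard error of the fit. Differences above 1 were seen in 397 genes higher in lola clones and differences below -1 in 261 higher in nerfin-1 clones. At above 3 and below -3 the counts were 105 and 58. The median over all tested genes was 0.00 on the log2 scale. The other 10182 of 17633 genes had too few counts to test. The gene lists held 599 distinct tested genes. Of the 1156 called genes, 219 were in the lists or picked by the naming rule given below, so most calls lay elsewhere.

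**Figure D1:**
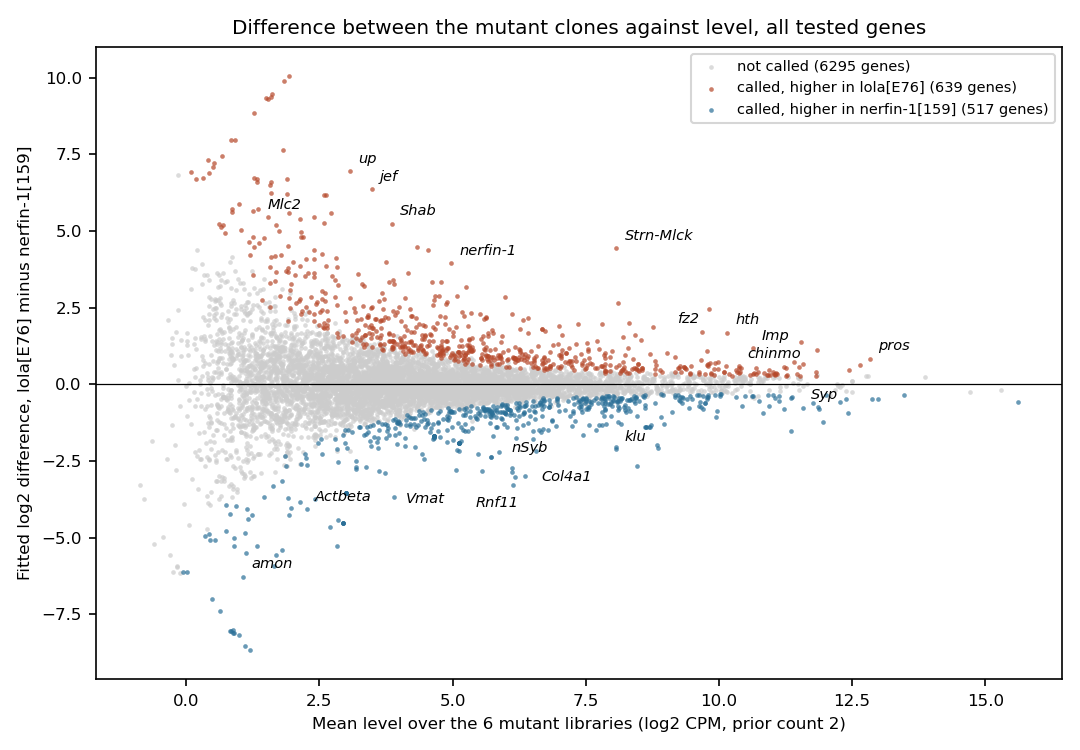
Fitted log2 difference of each tested gene (vertical axis, lola[E76] minus nerfin-1[159]) against its mean level over the 6 mutant libraries (horizontal axis, log2 CPM with a prior count of 2), with 639 genes called higher in lola[E76] in red, 517 called higher in nerfin-1[159] in blue and the rest in grey. The most extreme fitted differences lie at low levels, where 1 group has few or no counts, while Strn-Mlck, hth, Imp and fz2 stand out among well-counted genes.

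Library totals ranged from 3465601 to 4554654 counts in the mutants and from 3754323 to 5200223 in WT, so 3 counts equalled 0.568 to 0.849 CPM (counts scaled to a common library size by TMM). Log2 CPM correlated at 0.905 to 0.935 among lola libraries, 0.934 to 0.942 among nerfin-1 libraries and 0.850 to 0.885 between the genotypes, and no pair of libraries agreed within sampling noise. The biological coefficient of variation was 40.6% in lola, 30.1% in nerfin-1 and 24.2% in WT. In a principal component analysis of the 6 mutant libraries the leading axis (45.4% of the variance) parted the genotypes, and the next (19.9%) set lola replicate 1 apart from lola replicates 2 and 3. Libraries of the 2 genotypes did not overlap for 30.3% of tested genes, in one direction or the other, and for 1126 of the 1156 called genes. Bulk counts cannot tell fewer cells of a type from less RNA per cell, and this holds for every difference below.

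The targeted genes were read first. nerfin-1 RNA was 123, 152 and 143 CPM in the lola libraries and 18.4, 6.77 and 2.13 CPM in the nerfin-1 libraries, against 313, 263 and 275 CPM in WT (log2 difference 3.95 ± 0.36, adjusted p = 2.95e-07). All nerfin-1 libraries were below all others, with replicate 1 retaining the most (4.94 without nerfin-1[159] replicate 1 for the log2 difference). lola RNA was 2136, 2087 and 1729 CPM in lola libraries and 2430.2, 2638 and 2628 CPM in nerfin-1 libraries, with WT at 1942, 1752 and 1596 (-0.37 ± 0.10, adjusted p = 0.0168). The lola transcript was thus present in lola clones within or above the WT range, and tags at the 3′ ends of its many isoforms do not check the lola[E76] label. lola was not called on leaving out lola[E76] replicate 3, nerfin-1[159] replicate 2 or 3 (adjusted p = 0.0577 to 0.0978).

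Neuroblast factors separated the genotypes on the progenitor side. Of 11 tested members 3 were called, all higher in nerfin-1 clones, and the list median was -0.64. klu, a zinc finger factor that keeps neuroblasts growing, was 144, 117 and 129 CPM in lola and 494, 556 and 638 CPM in nerfin-1 libraries (-2.12 ± 0.31, adjusted p = 9.47e-05), with WT at 28.6, 132 and 117 CPM. insc, the Inscuteable adaptor that orients neuroblast divisions, was 13.1, 12.3 and 14.1 CPM in lola and 38.2, 50.4 and 48.5 CPM in nerfin-1 libraries (-1.80 ± 0.29, adjusted p = 0.000196). dpn, the bHLH repressor that defines neuroblasts, was 14.8, 11.9 and 17.4 CPM in lola and 45.0, 31.6 and 41.8 CPM in nerfin-1 libraries, with WT at 1.35, 10.4 and 11.6 CPM (-1.43 ± 0.44, adjusted p = 0.0323). For these 3 genes every nerfin-1 library lay above every lola and every WT library. The dpn call did not hold on leaving out lola[E76] replicate 1, 2 or 3, nerfin-1[159] replicate 1 or 3 (adjusted p = 0.0565 to 0.105). The scaffold mira, which carries fate determinants to the daughter cell, averaged 145 CPM in lola, 226 in nerfin-1 and 61.1 in WT clones without a call between the mutants, and wor, the Snail-family factor Worniu, averaged 53.1, 83.9 and 14.2. ase, which marks type I neuroblasts, differed little (44.6 CPM in lola and 51.0 in nerfin-1). The other 5 members, sna, SoxN, esg, grh and pnt, were not called. The summed level of 5 neuroblast markers (dpn, wor, ase, mira and klu) ran from 354.8 to 414 CPM in lola, from 915 to 1055 in nerfin-1 and from 77.0 to 253 in WT libraries. Both mutants therefore lay above WT in this sum, with lola clones between. klu alone, at means of 130 CPM in lola and 563 CPM in nerfin-1 clones, made up most of the gap between the mutants. Of the other markers only dpn was called.

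In the division machinery, of 12 tested members of the asymmetric division list only dlg1, a cortical polarity scaffold, was called, and it was higher in lola clones, at 697, 775 and 890.3 CPM against 503, 558 and 539 CPM (0.56 ± 0.11, adjusted p = 0.00165). brat, the translational repressor handed to the differentiating daughter, was 3244, 3668 and 2785 CPM in lola and 3493, 3176 and 3018 CPM in nerfin-1 libraries (0.00 ± 0.10, adjusted p = 0.997), with overlapping libraries. The list median was -0.06, and the lola-high share of 8.33% was near the 8.58% of all tested genes.

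Notch signalling maintains neuroblasts and switches sibling neurons apart. Of 25 tested pathway genes 5 were higher in nerfin-1 and 1 in lola clones, with a median of -0.46. E(spl)mgamma-HLH, a Notch-induced repressor expressed in neuroblasts, was 112, 105 and 72.8 CPM in lola and 265, 193 and 280.1 CPM in nerfin-1 libraries (-1.35 ± 0.18, adjusted p = 2.65e-05), with WT at 84.0, 92.7 and 97.8. E(spl)malpha-BFM, a Bearded-family target of the same gene complex, was 10.6, 13.8 and 19.4 CPM and 41.3, 35.6 and 30.9 CPM (-1.29 ± 0.29, adjusted p = 0.00353). Neither target overlapped between the mutants. kuz, the protease that cleaves the Notch receptor, was 565, 649.8 and 629 CPM in lola and 994, 1041 and 1010.2 CPM in nerfin-1 libraries (-0.72 ± 0.10, adjusted p = 6.14e-05). spdo, which Notch needs in asymmetric divisions, was 75.7, 66.6 and 62.6 CPM in lola and 125, 120.4 and 135 CPM in nerfin-1 libraries (-0.89 ± 0.16, adjusted p = 0.000715). neur, the ligand-activating ubiquitin ligase, averaged 51.4 and 92.1 CPM, and its call did not hold on leaving out lola[E76] replicate 1 or 2, nerfin-1[159] replicate 1 (adjusted p = 0.0664 to 0.0707). The co-activator mam was the member higher in lola clones (0.52 ± 0.12, adjusted p = 0.00601), and the receptor N itself was not called, at a mean of 365 CPM in lola and 427 in nerfin-1 clones. The lola count became 2 without nerfin-1[159] replicate 1.

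Genes of commitment to the neuronal fate went both ways. Of 9 tested members of that list 3 were higher in lola and 2 in nerfin-1 clones, 2 of the 5 being the mutated genes themselves, and the median was -0.29. pros, the homeodomain factor that ends self-renewal in ganglion mother cells, was 12645, 8006 and 9014 CPM in lola and 4805, 6602 and 5239.8 CPM in nerfin-1 libraries (0.83 ± 0.16, adjusted p = 0.000995), with WT at 13416, 17302 and 11367 CPM. By mean WT was highest, lola intermediate and nerfin-1 lowest, without overlap between the mutants. sc, the proneural bHLH factor Scute, was 33.9, 25.9 and 44.0 CPM in lola, 4.53, 3.26 and 5.33 in nerfin-1 and 2.43, 1.25 and 0.947 in WT libraries (2.98 ± 0.42, adjusted p = 5.6e-05). tap, a neurogenin-family factor, ran the other way at 71.4, 70.9 and 57.4 CPM in lola and 182, 160.5 and 219 CPM in nerfin-1 libraries (-1.49 ± 0.18, adjusted p = 1.03e-05), with WT at 106, 69.6 and 81.3. The nerfin-1 count of this list fell to 1 without lola[E76] replicate 3 or nerfin-1[159] replicate 2 or 3.

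All called cell division genes were higher in nerfin-1 clones. Of 27 tested G2 and mitosis genes 6 were higher in nerfin-1 and 0 in lola clones, 23 of 27 had negative differences, and the median was -0.43. By edgeR's test 0 members were lola-high at an unadjusted p under 0.05 as well (11 nerfin-1-high), and DESeq2 called 0 and 7. stg, the Cdc25 phosphatase that triggers mitosis, was 282, 275 and 217 CPM in lola and 780.1, 607 and 658 CPM in nerfin-1 libraries (-1.40 ± 0.15, adjusted p = 2.9e-06), with WT at 288, 315 and 430.2. ncd, a spindle kinesin, was 11.9, 12.7 and 16.3 CPM and 34.5, 40.1 and 46.1 CPM (-1.56 ± 0.28, adjusted p = 0.000694). CycA, a mitotic cyclin, was 279, 212 and 219.6 CPM and 433, 431 and 448 CPM (-0.89 ± 0.15, adjusted p = 0.000436), with WT at 141, 169 and 225. For these 3 genes all nerfin-1 libraries were above all lola libraries. The anillin gene scra (-1.18 ± 0.20, adjusted p = 0.000288), the chromosomal passenger gene Incenp (-1.02 ± 0.24, adjusted p = 0.00607) and the midzone protein gene feo (-0.61 ± 0.17, adjusted p = 0.014) completed the 6, of which feo had no call on leaving out lola[E76] replicate 2, nerfin-1[159] replicate 2 (adjusted p = 0.0659 to 0.108). For all 6 the WT mean was nearer to lola than to nerfin-1 on the log2 scale. The kinase gene aurA was not called, with 9 counts over the lola libraries and 62 over the nerfin-1 libraries, a ratio of 8.10 in summed CPM (95% interval 4.00 to 18.5, counting error only).

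Replication genes showed 2 calls of 21, both higher in nerfin-1 clones (9.52%, near the 6.94% of all tested genes). Differences were negative for 17 members, and the median was -0.34. By edgeR's test 1 member was lola-high and 2 were nerfin-1-high at an unadjusted p under 0.05. E2f1, the activator of S phase genes, was 1422, 1583 and 1573 CPM in lola and 2557, 2412 and 2589 CPM in nerfin-1 libraries (-0.72 ± 0.11, adjusted p = 8.54e-05), with WT at 1144, 1480.1 and 1503. The replication licensing gene dup averaged 12.9 and 27.5 CPM, and its call did not hold on leaving out WT replicate 2, lola[E76] replicate 1, 2 or 3, nerfin-1[159] replicate 1 or 2, with library size scaling, with no filter and with the replicate block (adjusted p = 0.0502 to 0.193). Core replication genes were not called, with PCNA, the polymerase clamp, at means of 232 and 233 CPM and the helicase gene Mcm7 at 47.4 and 47.4 CPM. The count of called S phase genes was 4 without WT replicate 1 and in the fit of the 6 mutant libraries alone. It was 1 without WT replicate 2, any lola library or either of nerfin-1[159] replicates 1 and 2, with library size scaling and with the replicate block.

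The medulla temporal series gave the highest called share of any list on the nerfin-1 side, 9 of 14 members, with 1 higher in lola clones and a median of -0.95. hth, which acts first in the series and persists in the neurons born then, was 1867, 2315 and 1947 CPM in lola and 559, 697 and 662 CPM in nerfin-1 libraries (1.68 ± 0.12, adjusted p = 2.55e-08), with WT at 1009, 1359 and 1158. ey, which follows, was 32.2, 21.5 and 23.0 CPM in lola and 87.2, 45.1 and 73.3 CPM in nerfin-1 libraries (-1.42 ± 0.26, adjusted p = 0.000828), with WT at 24.9, 31.7 and 33.9. hth was thus the lone member higher in lola clones, with no library of 1 genotype reaching the other, while ey was higher in nerfin-1 clones and in WT lay near lola. slp1 and slp2, the paired forkhead factors of the middle windows, were 1.69, 20.5 and 11.2 CPM and 15.7, 19.4 and 10.9 CPM in lola libraries. In nerfin-1 libraries slp1 was 60.6, 47.9 and 73.6 CPM and slp2 58.3, 50.6 and 60.8 CPM (-2.43 ± 0.46, adjusted p = 0.000929 for slp1, and -1.88 ± 0.26, adjusted p = 5.34e-05 for slp2). Lola replicate 2 held the most slp1 of its group, and without it the slp1 difference was -3.21. hbn, the homeodomain factor Homeobrain, was 27.3, 23.7 and 39.3 CPM in lola and 107, 94.0 and 90.4 CPM in nerfin-1 libraries (-1.69 ± 0.21, adjusted p = 1.24e-05), with WT between at 76.2, 70.0 and 59.1. opa, the zinc finger factor Odd paired, was 45.5, 50.6 and 27.3 CPM and 110.1, 78.2 and 134 CPM (-1.38 ± 0.23, adjusted p = 0.000329). B-H1, a homeodomain factor of the series, was low in lola at 1.45, 3.23 and 2.68 CPM against 7.93, 12.3 and 16.0 CPM in nerfin-1 libraries (-2.28 ± 0.53, adjusted p = 0.00519). The remaining called members were tll (-1.62 ± 0.42, adjusted p = 0.01), scro (-0.52 ± 0.12, adjusted p = 0.00605) and D (-0.45 ± 0.14, adjusted p = 0.0319). tll had no call on leaving out nerfin-1[159] replicate 1 (adjusted p = 0.0563), and D had none on leaving out lola[E76] replicate 1 or 3, nerfin-1[159] replicate 1 or 3, with library size scaling and in the fit of the 6 mutant libraries alone (adjusted p = 0.0542 to 0.156). Of the 9 members higher in nerfin-1 clones, 8 had a WT mean between the 2 mutants. The other members, dmrt99B, gcm, erm and L, were not called.

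Genes of the Imp to Syp clock differed in a matched way. Imp was 2563, 2953 and 1893 CPM in lola, 677, 1531 and 1094 CPM in nerfin-1 and 121, 231 and 202 CPM in WT libraries (1.17 ± 0.24, adjusted p = 0.00161). chinmo, whose RNA Imp is known to stabilise, was 1753, 1729 and 1421 CPM in lola and 981, 1224 and 1067 CPM in nerfin-1 libraries (0.58 ± 0.12, adjusted p = 0.00156), with WT at 1337, 1569 and 1228. Syp, the late counterpart, was 2471, 2407 and 2166 CPM in lola and 4539, 3295 and 4129 CPM in nerfin-1 libraries (-0.76 ± 0.14, adjusted p = 0.000616), with WT at 1871, 2436 and 2942. Lola clones thus held more Imp and chinmo and less Syp than nerfin-1 clones, without overlap between libraries, and Imp in both mutants was above every WT library. The ratio of group means, lola over nerfin-1, was 2.24 for Imp and 1.498 for chinmo as fitted, and nerfin-1 over lola was 1.70 for Syp. lin-28, a heterochronic RNA-binding partner of Imp, was not called, with 124 counts over the lola and 10 over the nerfin-1 libraries, a ratio of 10.5 in summed CPM (95% interval 5.55 to 22.5, counting error only). mamo and svp, zinc finger and nuclear receptor factors of the early larval list, were higher in nerfin-1 clones (-0.75 ± 0.11, adjusted p = 0.000106 for mamo, and -1.05 ± 0.19, adjusted p = 0.00073 for svp). Of 7 tested early larval genes 2 were called each way, and the list median of -0.52 turned to 0.28 without nerfin-1[159] replicate 3.

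Ecdysone, the moulting hormone, drives late larval neuroblast and neuron maturation, and of 16 tested late and ecdysone genes 4 were higher in lola clones and 1, Syp, in nerfin-1 clones (median 0.28). Eip74EF, an early ecdysone-response factor, was 29.0, 26.1 and 18.1 CPM in lola and 1.13, 1.76 and 2.13 CPM in nerfin-1 libraries (3.84 ± 0.51, adjusted p = 3.25e-05), with WT at 8.64, 5.83 and 16.9. ImpE1, an ecdysone-induced membrane protein gene, was 70.4, 54.1 and 67.9 CPM and 11.0, 7.52 and 10.1 CPM (2.75 ± 0.51, adjusted p = 0.000811), with WT spread over 31.9, 65.0 and 239.7. Neither overlapped between the mutants. The receptor EcR and its partner usp were not called, at means of 55.9 and 47.4 CPM in lola and 71.8 and 45.8 CPM in nerfin-1 clones, and neither was the late factor Eip93F (575 and 560.5 CPM). The calls of the other 2 members were unstable. MsrA had no call on leaving out lola[E76] replicate 1 or 3, nerfin-1[159] replicate 1 or 3, with limma voom and in the fit of the 6 mutant libraries alone (adjusted p = 0.0562 to 0.109), and Eip75B had no call on leaving out WT replicate 2 or 3, lola[E76] replicate 1, 2 or 3, nerfin-1[159] replicate 2 or 3 (adjusted p = 0.0507 to 0.226). The lola count of the list was 2 without lola[E76] replicate 1, lola[E76] replicate 3 or nerfin-1[159] replicate 3.

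The list of BTB zinc finger factors, the class of both Lola and Chinmo, gave 4 members higher in lola and 1, lola itself, in nerfin-1 clones of 14 tested. The list does not cover the whole class, and mamo, given above with the early larval genes, was not in it. ttk, the repressor Tramtrack, was 153, 152 and 161 CPM in lola, 20.7, 32.6 and 42.1 CPM in nerfin-1 and 21.6, 15.4 and 27.5 CPM in WT libraries (2.28 ± 0.24, adjusted p = 1.95e-06). lov, Jim Lovell, was 34.8, 32.7 and 22.1 CPM in lola and 9.91, 13.8 and 10.1 CPM in nerfin-1 libraries (1.40 ± 0.30, adjusted p = 0.00274). Lola libraries stood apart from the others for ttk, whereas for lov the WT libraries lay with lola. ab averaged 38.0 and 19.5 CPM, and its call did not hold on leaving out lola[E76] replicate 1 or 3, nerfin-1[159] replicate 1 or 3 and with the replicate block (adjusted p = 0.0522 to 0.128). The nerfin-1 count was 0 without lola[E76] replicate 3 or nerfin-1[159] replicate 2 or 3. The list median was 0.05, and it was just below 0 without nerfin-1[159] replicate 1. br, the ecdysone-responsive factor Broad, and fru were not called.

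**Figure D2:**
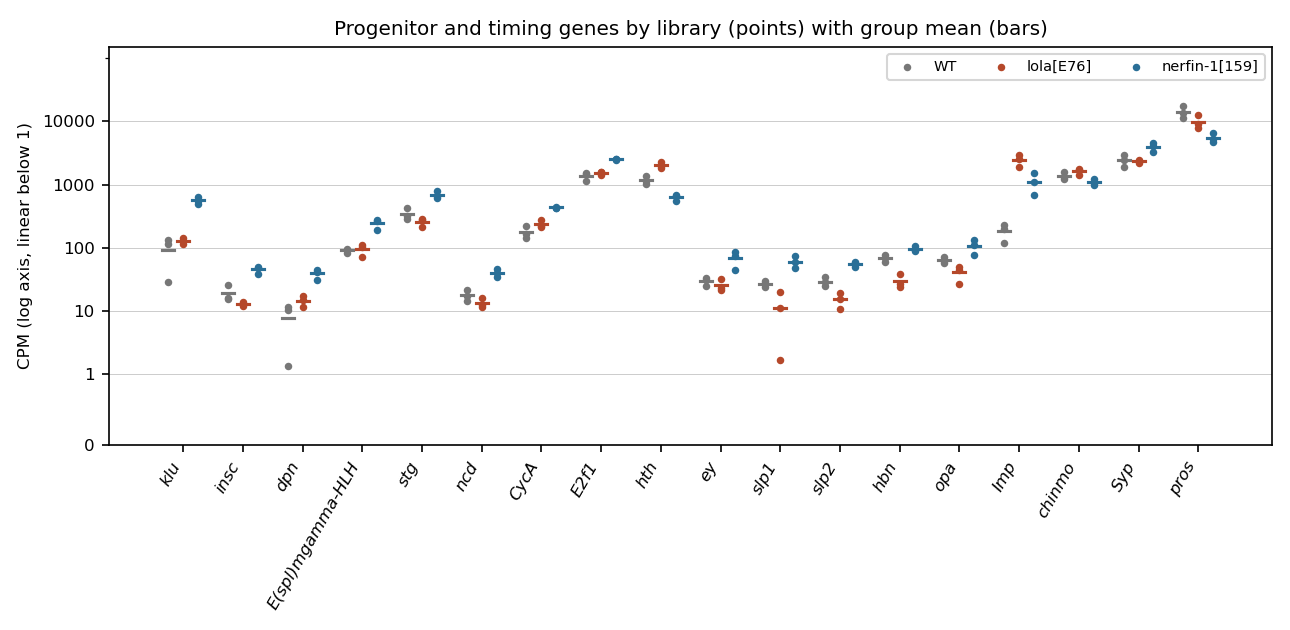
CPM of 18 progenitor and timing genes in each library (points, vertical log axis that is linear below 1) with the mean of each group (bars), for WT in grey, lola[E76] in red and nerfin-1[159] in blue. From klu to E2f1 and from ey to opa the nerfin-1 libraries lie highest, hth, Imp and chinmo have their highest mean in lola libraries, and pros its lowest in nerfin-1 libraries.

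Pan-neuronal genes went both ways. elav, the RNA-binding protein present in all neurons, was 2185, 2436 and 1962 CPM in lola, 2393, 2426 and 2216 CPM in nerfin-1 and 2808, 2443 and 2224 CPM in WT libraries (-0.10 ± 0.10, adjusted p = 0.622), with overlapping libraries. Of 11 tested pan-neuronal genes 3 were higher each way (median 0.22). tau, a microtubule-binding protein of axons, was 40.9, 33.6 and 60.3 CPM in lola and 221, 206 and 179 CPM in nerfin-1 libraries (-2.17 ± 0.20, adjusted p = 4.88e-07), with WT at 82.4, 69.1 and 98.3. nSyb, the synaptic vesicle fusion protein, was 13.3, 17.5 and 59.6 CPM in lola, 147, 155 and 122 CPM in nerfin-1 and 452, 399 and 394 CPM in WT libraries (-2.22 ± 0.34, adjusted p = 0.000119). Lola replicate 3 held several times the nSyb of the other lola libraries, and the difference was -3.19 without lola[E76] replicate 3. The microtubule protein gene Map205 was also higher in nerfin-1 clones (-0.49 ± 0.14, adjusted p = 0.0182), with no call on leaving out lola[E76] replicate 1, nerfin-1[159] replicate 1 or 3 (adjusted p = 0.0511 to 0.102). futsch, a MAP1B homologue, was 368, 407 and 341 CPM in lola and 181, 197 and 149 CPM in nerfin-1 libraries (1.08 ± 0.13, adjusted p = 1.05e-05). fne, an elav paralogue, was 4101, 3386 and 4214 CPM and 2466, 2745 and 2139 CPM (0.67 ± 0.12, adjusted p = 0.000545). Both were therefore higher in lola clones, as was jus, julius seizure (2.71 ± 0.54, adjusted p = 0.00137, 3.56 without nerfin-1[159] replicate 2). A summed level of 6 neuron markers, elav, nSyb, Syt1, brp, para and futsch, overlapped between the mutants (2892 to 3401 CPM in lola and 2710.0 to 3083 in nerfin-1 libraries) and was 3537 to 4192 CPM in WT.

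Ion channels and their regulators were among the clearest lola-high programmes, with 11 of 27 tested members higher in lola and 4 in nerfin-1 clones and a median of 0.66. Shab, a delayed rectifier potassium channel, was 80.1, 86.8 and 76.6 CPM in lola, 1.98, 2.51 and 1.87 CPM in nerfin-1 and 12.4, 11.9 and 23.7 CPM in WT libraries (5.24 ± 0.35, adjusted p = 1.14e-08). SK, the calcium-activated potassium channel, was 184, 159 and 152 CPM in lola and 45.0, 38.6 and 31.5 CPM in nerfin-1 libraries (2.11 ± 0.18, adjusted p = 1.27e-07). Ca-alpha1T, the T-type calcium channel, was 37.5, 39.2 and 52.3 CPM and 7.36, 11.8 and 4.53 CPM (2.44 ± 0.32, adjusted p = 2.79e-05). Shab in lola clones was above the WT level too, and Ca-alpha1T in lola clones was near WT (37.3, 55.4 and 55.5 CPM). Sh, the Shaker potassium channel, was 672, 753 and 510.5 CPM in lola, 186, 142 and 156 CPM in nerfin-1 and 996, 1027 and 880.0 CPM in WT libraries (2.00 ± 0.14, adjusted p = 1.96e-08). para, the voltage-gated sodium channel behind the action potential, was 80.3, 109 and 86.0 CPM in lola and 31.1, 39.9 and 16.5 CPM in nerfin-1 libraries (1.65 ± 0.25, adjusted p = 0.000116), with WT at 107, 157 and 126. Both were lowest in nerfin-1 clones, with no overlap. Shal, Hk, Ih, NaCP60E, Teh2 and stj made up the 11, with differences from 0.79 (stj) to 1.66 (Shal). Of these, stj had no call on leaving out WT replicate 1, 2 or 3, lola[E76] replicate 2 or 3, nerfin-1[159] replicate 2 or 3, with limma voom, in the fit of the 6 mutant libraries alone and with the replicate block (adjusted p = 0.0604 to 0.23), Hk on leaving out WT replicate 2 or 3, lola[E76] replicate 3, nerfin-1[159] replicate 1 or 3, with limma voom and in the fit of the 6 mutant libraries alone (adjusted p = 0.0621 to 0.147) and Teh2 on leaving out lola[E76] replicate 3, nerfin-1[159] replicate 1 (adjusted p = 0.051 to 0.0564).

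A few channel genes ran the other way. qvr, the Ly-6 protein that regulates Shaker, was 6.29, 2.15 and 11.4 CPM in lola, 25.8, 20.6 and 19.5 CPM in nerfin-1 and 81.0, 102 and 99.3 CPM in WT libraries (-1.73 ± 0.37, adjusted p = 0.00251; -2.39 without lola[E76] replicate 3). Task7, a potassium leak channel, was 4.36, 0.431 and 1.12 CPM in lola and 18.4, 9.28 and 9.06 CPM in nerfin-1 libraries (-2.65 ± 0.60, adjusted p = 0.00436, -3.93 without lola[E76] replicate 1). cac, the presynaptic calcium channel, averaged 82.7 and 136 CPM (-0.72 ± 0.18, adjusted p = 0.00839), with no call on leaving out lola[E76] replicate 3 (adjusted p = 0.0505). Lola clones had the lowest mean of the 3 genotypes for these 3 genes, and WT was above both mutants for qvr and Task7. Ca-alpha1D, the L-type calcium channel, was 0, 2.15 and 4.69 CPM in lola and 9.06, 16.8 and 10.9 CPM in nerfin-1 libraries (-3.42 without lola[E76] replicate 3), and its call did not hold on leaving out nerfin-1[159] replicate 2 and in the fit of the 6 mutant libraries alone (adjusted p = 0.0596 to 0.0704).

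Transmitter receptors gave 15 of 35 tested members higher in lola and 4 in nerfin-1 clones, with a median of 0.94. Octbeta3R, an octopamine receptor, was 12.1, 29.5 and 21.7 CPM in lola and 1.42, 3.01 and 2.13 CPM in nerfin-1 libraries (3.24 ± 0.46, adjusted p = 5.56e-05), with WT at 19.2, 15.4 and 22.2. 5-HT2A, a serotonin receptor, was 22.0, 12.3 and 12.3 CPM in lola and 2.55, 1.504 and 1.87 CPM in nerfin-1 libraries (2.96 ± 0.64, adjusted p = 0.00307), and WT was also low at 2.16, 0.833 and 3.22. nAChRbeta1, a nicotinic acetylcholine receptor subunit, was 34.4, 45.7 and 44.0 CPM in lola, 13.9, 8.27 and 4.26 CPM in nerfin-1 and 36.2, 52.7 and 35.8 CPM in WT libraries (2.23 ± 0.34, adjusted p = 0.000126). None of these overlapped between the mutants. The nicotinic subunit genes nAChRalpha1, nAChRalpha3 and nAChRalpha7 were also higher in lola clones, with nAChRalpha6, the most counted, at 527, 481 and 427 CPM in lola and 269, 170.5 and 193 CPM in nerfin-1 libraries (1.18 ± 0.15, adjusted p = 1.7e-05). GluClalpha, the glutamate-gated chloride channel, was 213, 265 and 263 CPM and 77.9, 60.7 and 59.97 CPM (1.90 ± 0.16, adjusted p = 1.15e-07). The GABA receptor genes Rdl (0.78 ± 0.22, adjusted p = 0.0192) and GABA-B-R2 (0.94 ± 0.24, adjusted p = 0.00856) were higher in lola clones as well, but Rdl had no call on leaving out lola[E76] replicate 2 or 3, nerfin-1[159] replicate 3 (adjusted p = 0.0678 to 0.11) and GABA-B-R2 on leaving out nerfin-1[159] replicate 2 (adjusted p = 0.0506). The rest of the 15 were the aminergic receptors Octbeta1R, Octalpha2R, Dop1R1 and Dop2R and the glutamate receptor GluRIB, at 1.57 (Dop1R1) to 3.03 (Dop2R). Without nerfin-1[159] replicates 1 and 2 in turn the Dop2R difference was 4.31 and 2.43. Dop1R1 (0.94 without lola[E76] replicate 3) had no call on leaving out WT replicate 2 or 3, lola[E76] replicate 3, nerfin-1[159] replicate 2 or 3, with limma voom, in the fit of the 6 mutant libraries alone and with the replicate block (adjusted p = 0.0603 to 0.282), and nAChRalpha7 on leaving out lola[E76] replicate 1, nerfin-1[159] replicate 2 or 3 and in the fit of the 6 mutant libraries alone (adjusted p = 0.0531 to 0.102).

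On the nerfin-1 side stood other receptors. Lcch3, a GABA receptor subunit, was 4.60, 4.31 and 1.34 CPM in lola, 31.7, 21.3 and 17.6 CPM in nerfin-1 and 45.6, 41.4 and 35.1 CPM in WT libraries (-2.78 ± 0.40, adjusted p = 6.23e-05). GABA-B-R1, a metabotropic GABA receptor, averaged 7.99, 23.2 and 54.3 CPM (-1.53 ± 0.32, adjusted p = 0.00211), and nAChRalpha4 averaged 6.52, 17.2 and 32.3 CPM (-1.39 ± 0.38, adjusted p = 0.0158), the last with no call on leaving out lola[E76] replicate 3, nerfin-1[159] replicate 1 or 2, with limma voom and in the fit of the 6 mutant libraries alone (adjusted p = 0.0674 to 0.0746). mGluR, the metabotropic glutamate receptor, averaged 1.82, 11.4 and 7.30 CPM, and its call did not hold on leaving out nerfin-1[159] replicate 2 (adjusted p = 0.0679). WT lay nearer to nerfin-1 clones for all 4. The nerfin-1 count was 2 without nerfin-1[159] replicate 2. CG11155, among the 12 largest nerfin-1-high differences of well-counted genes with separate libraries, was 12.3, 9.70 and 15.6 CPM in lola, 85.8, 86.3 and 89.8 CPM in nerfin-1 and 140.5, 103 and 102 CPM in WT libraries (-2.80 ± 0.21, adjusted p = 3.8e-08).

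Called synaptic release genes were mostly higher in lola clones, 9 of 29 against 4, yet 14 members had positive and 15 negative differences. The list median was -0.05, and it turned positive (up to 0.04) without lola[E76] replicate 1 or nerfin-1[159] replicate 1 or 2. Rab3, a vesicle GTPase, was 77.0, 72.0 and 81.1 CPM in lola and 26.9, 24.6 and 10.7 CPM in nerfin-1 libraries (1.89 ± 0.26, adjusted p = 4.25e-05), with WT at 65.6, 76.2 and 66.1. Rim, an active zone scaffold, was 260.4, 198 and 304 CPM and 126, 92.8 and 89.3 CPM (1.31 ± 0.19, adjusted p = 6.29e-05), with WT at 200.4, 306 and 227. Snap25, a fusion SNARE, was 33.2, 24.6 and 15.4 CPM and 7.36, 13.04 and 6.93 CPM (1.41 ± 0.35, adjusted p = 0.00785). WT was nearer to lola clones for all 9 of the lola-high members, which also held brp, the active zone core protein (0.85 ± 0.16, adjusted p = 0.000969), the vesicle motor unc-104 (1.09 ± 0.16, adjusted p = 7.36e-05), Syt1, Syt7, stj and unc-13. Against them, Syt4, a postsynaptic and peptidergic synaptotagmin, was 45.5, 40.1 and 114 CPM in lola, 192, 174 and 178 CPM in nerfin-1 and 355, 309 and 275 CPM in WT libraries (-1.45 ± 0.26, adjusted p = 0.000694). As for nSyb, lola replicate 3 was the highest of its group, and the Syt4 difference was -2.08 without lola[E76] replicate 3. AP-2alpha (-0.72 ± 0.18, adjusted p = 0.01) and cac were the other 2 beside nSyb. AP-2alpha had no call on leaving out lola[E76] replicate 2 (adjusted p = 0.0586), Syt1 on leaving out lola[E76] replicate 1 or 3, nerfin-1[159] replicate 3 (adjusted p = 0.0595 to 0.0909), and unc-13 on leaving out WT replicate 2 or 3, lola[E76] replicate 1, 2 or 3, nerfin-1[159] replicate 1, 2 or 3, with no filter and in the fit of the 6 mutant libraries alone (adjusted p = 0.0521 to 0.151). Many core genes were not called, among them Syx1A (499 and 528 CPM on average in lola and nerfin-1 clones) and cpx (209 and 227 CPM).

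Of the transmitter genes, 2 cholinergic genes were higher in lola clones and the monoamine transporter gene in nerfin-1 clones. ChAT, which makes acetylcholine, was 37.5, 63.8 and 80.6 CPM in lola and 22.7, 23.8 and 28.5 CPM in nerfin-1 libraries (1.28 ± 0.24, adjusted p = 0.00104), with WT at 83.2, 76.2 and 76.4. VAChT, which loads it into vesicles, was 100.4, 98.5 and 97.2 CPM and 51.5, 55.9 and 28.8 CPM (1.12 ± 0.19, adjusted p = 0.000438), with WT at 224, 229 and 198. Both cholinergic genes were lowest in nerfin-1 clones. VGlut, the vesicular glutamate transporter, was also higher in lola clones, at 47.7, 50.4 and 50.7 CPM against 30.6, 28.3 and 18.7 CPM, and its call did not hold on leaving out nerfin-1[159] replicate 3 (adjusted p = 0.0772). Vmat, which loads monoamines, was 3.39, 1.94 and 7.37 CPM in lola, 73.1, 41.6 and 48.2 CPM in nerfin-1 and 12.2, 13.5 and 17.4 CPM in WT libraries (-3.67 ± 0.41, adjusted p = 3.41e-06; -4.35 without lola[E76] replicate 3). Nerfin-1 clones thus exceeded WT in Vmat, and lola clones were lowest. Eaat1, a glial glutamate transporter, averaged 20.7 CPM in lola and 46.3 CPM in nerfin-1 clones, and its call did not hold on leaving out lola[E76] replicate 2 or 3, nerfin-1[159] replicate 1 (adjusted p = 0.0631 to 0.0813), so that the nerfin-1 count of this list was 1 without lola[E76] replicate 2, lola[E76] replicate 3 or nerfin-1[159] replicate 1. Of 12 tested members 3 were higher in lola and 2 in nerfin-1 clones (median 0.49). Gad1 and VGAT, the GABA genes, were not called, at means of 5.13 and 19.4 CPM in lola and 12.6 and 9.72 CPM in nerfin-1 clones.

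Neuropeptide genes were few, with 12 of 25 testable, 1 called each way. These shares, 8.33% each, were near the 8.58% and 6.94% of all tested genes. amon, the prohormone convertase that cleaves neuropeptide precursors, had 1 count over the lola libraries and 92 over the nerfin-1 libraries, a ratio of 108 in summed CPM (95% interval 18.9 to 4319, counting error only). In CPM amon was 0, 0 and 0.223 in lola, 5.10, 10.3 and 8.80 in nerfin-1 and 15.9, 17.3 and 18.6 in WT libraries (adjusted p = 2.8e-05, fitted log2 difference -6.27, -8.10 without lola[E76] replicate 3). IA-2, a dense-core vesicle protein, was 783, 656 and 679 CPM in lola, 113, 141 and 80.5 CPM in nerfin-1 and 237, 298 and 268 CPM in WT libraries (2.66 ± 0.17, adjusted p = 7.05e-09). The 2 called genes thus differed in opposite directions, with amon near 0 in lola clones and IA-2 highest there. The lola count of the list was 3 without lola[E76] replicate 1 and 2 without nerfin-1[159] replicate 2. The median of 0.55 was at its lowest -0.06 and was negative without lola[E76] replicate 3, with voom and at 10 CPM or more. ITP, the ion transport peptide gene, was outside the list but among the 12 largest lola-high differences of well-counted genes with separate libraries, at 87.6, 53.4 and 44.7 CPM against 4.81, 4.51 and 5.60 CPM (3.63 ± 0.41, adjusted p = 4.88e-06).

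**Figure D3:**
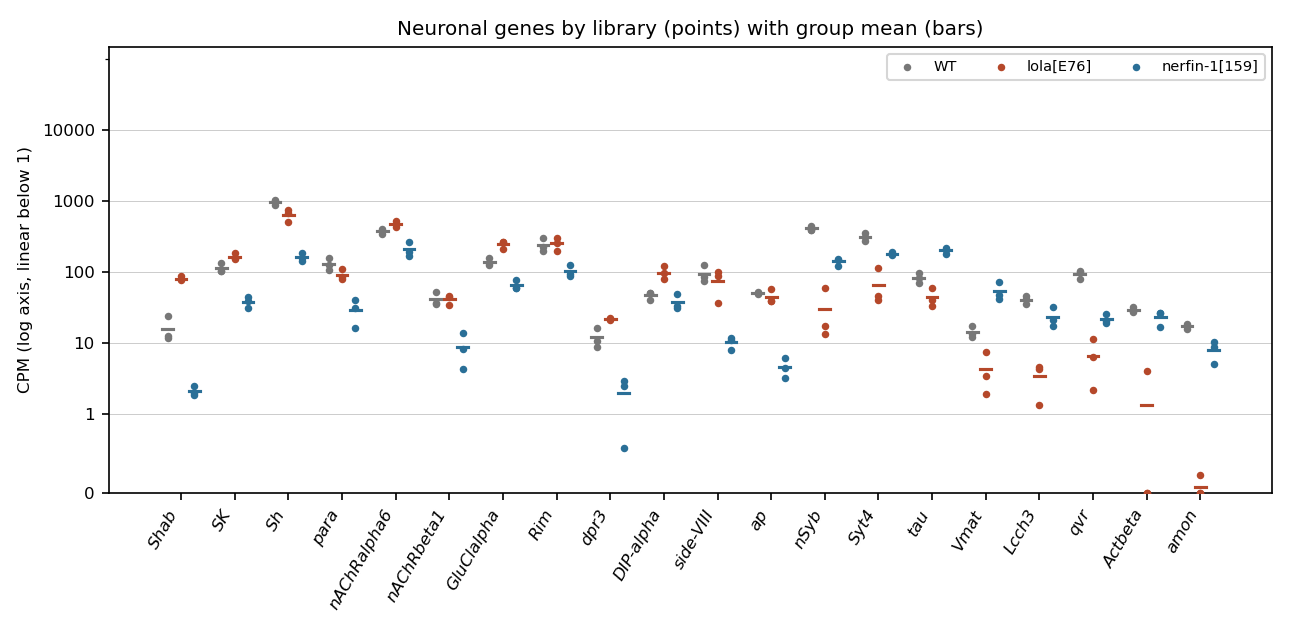
CPM of 20 neuronal genes in each library (points, vertical log axis that is linear below 1) with the mean of each group (bars), for WT in grey, lola[E76] in red and nerfin-1[159] in blue. From Shab to ap the lola libraries lie above the nerfin-1 libraries, and from nSyb to amon they lie below.

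Homeodomain factors that give medulla neurons their type differed gene by gene. Of 10 LIM and POU factors 2 were higher in lola and 1 in nerfin-1 clones (median 0.44). ap, the LIM factor Apterous that marks a large class of medulla neurons, was 38.7, 58.4 and 38.6 CPM in lola, 6.23, 4.51 and 3.20 CPM in nerfin-1 and 50.8, 52.1 and 49.6 CPM in WT libraries (3.28 ± 0.30, adjusted p = 4.17e-07). Bx, the LIM-only protein Beadex, was 35.6, 47.6 and 38.9 CPM in lola and 18.7, 24.6 and 10.4 CPM in nerfin-1 libraries (1.18 ± 0.28, adjusted p = 0.00517). Lim1 was 83.0, 70.7 and 91.4 CPM and 125, 136 and 119 CPM (-0.63 ± 0.15, adjusted p = 0.0051), with WT highest at 179, 206 and 177. ap in nerfin-1 clones was therefore far below both WT and lola clones, which stood close together. The nerfin-1 count was 2 without lola[E76] replicate 1.

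Of 23 other homeodomain factors 4 were higher in lola and 5 in nerfin-1 clones (median -0.14, and 0.03 without lola[E76] replicate 2). bsh, Brain-specific homeobox, a factor of lamina and medulla neuron types, was 7.99, 42.01 and 26.1 CPM in lola and 3.11, 0.251 and 3.20 CPM in nerfin-1 libraries (3.54 ± 0.66, adjusted p = 0.000843), with WT at 8.37, 8.12 and 5.68. ct, the factor Cut, was higher in lola clones (0.72 ± 0.15, adjusted p = 0.00189). Drgx was 16.0, 24.8 and 20.8 CPM in lola and 131, 59.7 and 112 CPM in nerfin-1 libraries (-2.29 ± 0.27, adjusted p = 5.74e-06), with WT at 55.6, 47.5 and 45.1. The bsh and Drgx libraries did not overlap, and the mutants lay on opposite sides of the WT mean for Drgx. dve (-1.04 ± 0.20, adjusted p = 0.000989), zfh1 (-1.04 ± 0.14, adjusted p = 4.68e-05) and oc (-0.76 ± 0.16, adjusted p = 0.00236) were the other factors higher in nerfin-1 clones beside ey. The fourth lola-high member, Ptx1, had 0 counts in every nerfin-1 library, and its call did not hold on leaving out lola[E76] replicate 1, nerfin-1[159] replicate 1, 2 or 3, with limma voom and with the replicate block (adjusted p = 0.0669 to 0.249). Dll and toy were among those not called.

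Identity factors without a homeodomain ran to nerfin-1 clones, 8 of 22 against 1 in lola clones (median -0.34). tj, the Maf factor Traffic jam, was 5.57, 10.1 and 5.81 CPM in lola and 22.1, 23.8 and 27.2 CPM in nerfin-1 libraries (-1.76 ± 0.40, adjusted p = 0.00403), with WT at 19.7, 8.12 and 17.1. Ets65A was 56.4, 80.6 and 42.2 CPM in lola and 172, 145 and 192 CPM in nerfin-1 libraries (-1.51 ± 0.21, adjusted p = 3.99e-05), with WT at 156, 131 and 187. kn, the COE factor Knot, was 48.2, 44.4 and 60.8 CPM and 90.9, 124 and 167 CPM (-1.32 ± 0.20, adjusted p = 0.000116), with WT at 135, 133 and 125. Nerfin-1 clones kept the WT level of Ets65A and kn, and lola clones were below it. The forkhead factors fkh (-1.04 ± 0.15, adjusted p = 5.39e-05) and fd59A (-0.96 ± 0.20, adjusted p = 0.00236), the zinc finger factor crol (-0.38 ± 0.11, adjusted p = 0.021), svp and D completed the 8, of which crol had no call on leaving out lola[E76] replicate 2 or 3, nerfin-1[159] replicate 2 or 3 (adjusted p = 0.0539 to 0.105). jim, a zinc finger factor, was the lola-high member, at 9006, 7139.6 and 8079 CPM against 4579, 6143 and 4868 CPM (0.64 ± 0.14, adjusted p = 0.00395). The lola count was 2 without WT replicate 2 or any single lola library. It was also 2 with limma voom, in the fit of the 6 mutant libraries alone and with the replicate block. With library size scaling, with no filter, at 10 CPM or more and with DESeq2's test it was 3.

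Of 29 tested dpr and DIP genes, immunoglobulin proteins that bind each other across synapses, 10 were higher in lola and 0 in nerfin-1 clones, 24 of 29 differences were positive, and the median was 1.11. dpr3 was 20.8, 21.8 and 22.6 CPM in lola, 0.566, 2.51 and 2.93 CPM in nerfin-1 and 10.5, 16.5 and 8.91 CPM in WT libraries (3.41 ± 0.51, adjusted p = 9.47e-05). dpr9 was 31.9, 28.4 and 40.7 CPM in lola, 9.06, 5.01 and 12.8 CPM in nerfin-1 and 53.2, 63.9 and 58.2 CPM in WT libraries (1.91 ± 0.30, adjusted p = 0.00018). DIP-alpha was 121, 95.9 and 78.9 CPM in lola, 33.4, 30.8 and 49.6 CPM in nerfin-1 and 40.0, 51.0 and 50.6 CPM in WT libraries (1.37 ± 0.22, adjusted p = 0.000218). Nerfin-1 libraries lay below all lola libraries for these 3 genes, while lola clones lay above WT for dpr3 and DIP-alpha and below WT for dpr9. dpr2 had 54 counts over the lola libraries and 1 over the nerfin-1 libraries, a ratio of 45.9 in summed CPM (95% interval 7.90 to 1847, counting error only; adjusted p of the dpr2 call = 0.00644, fitted log2 difference 5.13, 7.14 without nerfin-1[159] replicate 2). dpr6 (2.05 ± 0.40, adjusted p = 0.00121), dpr10 (1.62 ± 0.29, adjusted p = 0.000557), dpr8, dpr13, DIP-beta and DIP-eta were also called, DIP-eta not on leaving out lola[E76] replicate 2, nerfin-1[159] replicate 2 or 3 (adjusted p = 0.0562 to 0.119). On the nerfin-1 side edgeR called 0 members, 1 member had an unadjusted p under 0.05, and DESeq2 called 1.

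Of 21 sidestep and beaten path genes, partners in motor axon and visual wiring, 5 were higher in lola and 2 in nerfin-1 clones (median 0.41). side-VIII was 36.5, 87.0 and 99.9 CPM in lola, 11.6, 11.0 and 8.00 CPM in nerfin-1 and 124, 86.0 and 74.7 CPM in WT libraries (2.87 ± 0.33, adjusted p = 5.2e-06). beat-IIa was 74.8, 50.6 and 62.6 CPM in lola and 192, 101 and 95.7 CPM in nerfin-1 libraries (-1.05 ± 0.24, adjusted p = 0.00508). Both were separate between the mutants, in opposite directions. side-V was higher in lola clones (0.78 ± 0.19, adjusted p = 0.00772) and side-VII in nerfin-1 clones (-0.88 ± 0.27, adjusted p = 0.0287), the latter with overlapping libraries. side-V had no call on leaving out nerfin-1[159] replicate 2 (adjusted p = 0.0508), and side-VII on leaving out lola[E76] replicate 2, nerfin-1[159] replicate 1 or 2 and in the fit of the 6 mutant libraries alone (adjusted p = 0.0509 to 0.114). side-IV overlapped between the genotypes, at 10.2, 42.01 and 52.1 CPM in lola and 20.7, 1.76 and 1.87 CPM in nerfin-1 libraries (4.24 without nerfin-1[159] replicate 1), and its call did not hold on leaving out lola[E76] replicate 2 or 3, nerfin-1[159] replicate 2 or 3, with DESeq2, with limma voom and in the fit of the 6 mutant libraries alone (adjusted p = 0.0517 to 0.168). beat-VII had no call on leaving out lola[E76] replicate 2, nerfin-1[159] replicate 2 or 3 and with limma voom (adjusted p = 0.055 to 0.118), and beat-IIIc on leaving out nerfin-1[159] replicate 1 or 3 (adjusted p = 0.0527 to 0.0653). The lola count was 2 without nerfin-1[159] replicate 2 or 3, and the nerfin-1 count was 1 without nerfin-1[159] replicate 1 or 2.

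Axon guidance and adhesion genes split, with 13 of 50 higher in lola and 8 in nerfin-1 clones (median 0.17). kirre and rst encode paired immunoglobulin adhesion proteins, and both were higher in lola clones. kirre was 179, 218 and 185 CPM in lola and 71.4, 49.1 and 54.1 CPM in nerfin-1 libraries (1.74 ± 0.17, adjusted p = 9.05e-07), and rst was 217, 273 and 238 CPM and 162, 102 and 104.5 CPM (0.99 ± 0.17, adjusted p = 0.000507). Fas2, a neural cell adhesion protein, was 428, 424 and 414 CPM in lola, 259, 194 and 197 CPM in nerfin-1 and 364, 424 and 472 CPM in WT libraries (0.96 ± 0.13, adjusted p = 5.16e-05). drl, a Wnt5 receptor that steers axons, was 177, 164 and 201 CPM in lola, 415, 398 and 450.5 CPM in nerfin-1 and 195, 149.5 and 183 CPM in WT libraries (-1.22 ± 0.13, adjusted p = 2.68e-06). None of the 4 overlapped, and WT stood near lola clones for Fas2 and drl. robo3 (0.98 ± 0.17, adjusted p = 0.000548), Con (0.94 ± 0.17, adjusted p = 0.000532) and CadN (0.53 ± 0.10, adjusted p = 0.00121) were also higher in lola clones, and Nrt (-0.90 ± 0.14, adjusted p = 0.000126) in nerfin-1 clones. tok was higher in lola clones (1.87 ± 0.39, adjusted p = 0.0021, 2.57 without nerfin-1[159] replicate 1), and CadN2 had no call on leaving out lola[E76] replicate 2, nerfin-1[159] replicate 3 and with limma voom (adjusted p = 0.062 to 0.0917). The lola count was 8 without lola[E76] replicate 2 or nerfin-1[159] replicate 3. The nerfin-1 count was 3 without lola[E76] replicate 1, 4 without nerfin-1[159] replicate 1 and 5 without nerfin-1[159] replicate 3.

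Single receptors and feedback genes of signalling pathways also differed, in lists that each held few calls. In the Wnt list 4 of 17 were higher in lola and 2 in nerfin-1 clones. These shares were 23.5% and 11.8%, against 8.58% and 6.94% of all tested genes. fz2, a Wingless receptor, was 1315, 1512 and 1672 CPM in lola, 499.7, 515 and 359 CPM in nerfin-1 and 924, 1037 and 1026 CPM in WT libraries (1.71 ± 0.13, adjusted p = 3.8e-08). pan, the TCF factor of the pathway, was 557, 576 and 401 CPM in lola and 834, 783 and 755 CPM in nerfin-1 libraries (-0.63 ± 0.13, adjusted p = 0.00248). A receptor and the nuclear factor of 1 pathway were thus higher in opposite mutants. Wnt2 (3.52 ± 0.71, adjusted p = 0.00172; 2.70 without lola[E76] replicate 2 and 4.36 without nerfin-1[159] replicate 2; not called with limma voom (adjusted p = 0.0562)) and Wnt4 (0.41 ± 0.12, adjusted p = 0.026) were lola-high ligands, Wnt4 with no call on leaving out lola[E76] replicate 1 or 3, nerfin-1[159] replicate 1 (adjusted p = 0.0631 to 0.133). nkd, a feedback inhibitor, had no call on leaving out lola[E76] replicate 1 or 2, nerfin-1[159] replicate 1 or 2 (adjusted p = 0.0947 to 0.134). The Wnt median was 0.08 and became negative without lola[E76] replicate 2 or nerfin-1[159] replicate 1. The lola count was 2 without lola[E76] replicate 1 or nerfin-1[159] replicate 1.

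Among activin and BMP genes 3 of 17 were higher in lola and 1 in nerfin-1 clones (median 0.48). These shares were 17.6% and 5.88%, against 8.58% and 6.94% of all tested genes. Actbeta, an activin ligand, was 0, 0 and 4.02 CPM in lola, 26.3, 16.8 and 26.4 CPM in nerfin-1 and 31.9, 27.3 and 28.0 CPM in WT libraries (-4.07 ± 0.70, adjusted p = 0.000424). All lola counts of Actbeta came from replicate 3, and the difference was -3.47 without lola[E76] replicate 2 and -9.61 without lola[E76] replicate 3. myo, the ligand Myoglianin, was 82.3, 76.5 and 67.2 CPM in lola and 31.1, 36.1 and 30.1 CPM in nerfin-1 libraries (1.21 ± 0.22, adjusted p = 0.000645). Dad, the inhibitory Smad induced by BMP signals, was 31.7, 45.7 and 48.0 CPM and 20.4, 17.0 and 16.5 CPM (1.22 ± 0.27, adjusted p = 0.00316). The activin-class ligands Actbeta and myo were thus higher in opposite mutants. The third lola-high member, daw, had 0 counts in every nerfin-1 library, and its call did not hold on leaving out lola[E76] replicate 1 or 2, nerfin-1[159] replicate 1, 2 or 3, with DESeq2, with limma voom and with the replicate block (adjusted p = 0.059 to 0.132).

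In the Toll list 2 of 10 were called, both higher in lola clones (median 0.31). Myd88, the adaptor below Toll receptors, was 125, 96.3 and 83.8 CPM in lola, 16.7, 28.8 and 16.8 CPM in nerfin-1 and 5.40, 12.5 and 9.10 CPM in WT libraries (2.28 ± 0.29, adjusted p = 1.58e-05). Tollo, a Toll-family receptor, was 69.5, 73.5 and 65.0 CPM in lola, 20.7, 20.8 and 31.7 CPM in nerfin-1 and 11.6, 19.2 and 27.3 CPM in WT libraries (1.51 ± 0.28, adjusted p = 0.000867). Lola libraries were apart from both other genotypes for these 2 genes. Of 16 EGFR and JAK/STAT genes 2 were higher in lola and 1 in nerfin-1 clones (median 0.20). These shares, 12.5% and 6.25%, were near the 8.58% and 6.94% of all tested genes. The EGFR antagonists went in opposite directions, with aos at 37.0, 32.3 and 43.8 CPM in lola and 82.4, 62.4 and 79.4 CPM in nerfin-1 libraries (-0.99 ± 0.22, adjusted p = 0.00371) and kek1 at 227, 281 and 239 CPM and 176, 147 and 146 CPM (0.67 ± 0.13, adjusted p = 0.00143). dome, the JAK/STAT receptor, had no call on leaving out WT replicate 1, 2 or 3, lola[E76] replicate 1 or 3, nerfin-1[159] replicate 1, 2 or 3, with no filter, with limma voom, in the fit of the 6 mutant libraries alone and with the replicate block (adjusted p = 0.0536 to 0.169), and the lola count was 1 in most of these.

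Contractile genes differed by large folds, mostly in 1 direction. Of 12 tested muscle genes 5 were higher in lola and 1 in nerfin-1 clones (median 1.93). Strn-Mlck, a large titin-like kinase gene, was 1386, 1111 and 1272 CPM in lola, 51.8, 64.2 and 57.0 CPM in nerfin-1 and 149.6, 135 and 113 CPM in WT libraries (4.44 ± 0.15, adjusted p = 2.4e-13). up, which encodes troponin T, was 74.0, 50.8 and 113 CPM in lola, 0, 1.25 and 0.533 CPM in nerfin-1 and 1.35, 2.29 and 0.947 CPM in WT libraries (6.94 ± 0.54, adjusted p = 4.19e-08, 8.04 without nerfin-1[159] replicate 2). Mlc2, a myosin light chain, was 10.4, 41.6 and 43.8 CPM in lola and 0, 0.752 and 1.33 CPM in nerfin-1 libraries (5.44 ± 0.81, adjusted p = 0.000104; 6.23 without nerfin-1[159] replicate 3). Nerfin-1 and WT libraries were all below 3 CPM for up and Mlc2, and all lola libraries were far above them. wupA, troponin I, was 11.6, 26.9 and 42.4 CPM in lola and 0, 1.76 and 0 CPM in nerfin-1 libraries (5.40 ± 0.92, adjusted p = 0.000378; 9.86 without nerfin-1[159] replicate 2), and Tm2, tropomyosin, was 18.9, 13.4 and 14.3 CPM and 1.13, 2.01 and 0 CPM (3.84 ± 0.93, adjusted p = 0.00664; 4.74 without nerfin-1[159] replicate 2). The myosin heavy chain gene Mhc, which defines muscle, had only 11, 2 and 0 counts in lola and 4, 0 and 0 in nerfin-1 libraries and was not tested. bt, the giant protein Projectin, ran the other way at 23.7, 18.1 and 24.8 CPM in lola and 80.7, 49.6 and 46.1 CPM in nerfin-1 libraries (-1.40 ± 0.26, adjusted p = 0.000918). The summed level of the 14 muscle genes was 2072 to 2299 CPM in lola, 798 to 872 in nerfin-1 and 787 to 884 in WT libraries, without overlap between the mutants. Strn-Mlck alone made up most of that gap, and Tm1, tropomyosin of many cell types, made up most of the rest of the sum without a call, at 692, 744 and 699 CPM in lola and 693, 635 and 691 CPM in nerfin-1 libraries. The part of muscle cells in these differences was not tested. Mlc2 was not called with limma voom (adjusted p = 0.0566).

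Among 6 tubulins betaTub60D, known from muscle and some neurons, was 91.2, 96.1 and 97.4 CPM in lola, 3.11, 7.02 and 2.40 CPM in nerfin-1 and 3.78, 8.33 and 10.04 CPM in WT libraries (4.48 ± 0.37, adjusted p = 1.15e-07, 5.10 without nerfin-1[159] replicate 2). betaTub56D, the major beta-tubulin, was higher in nerfin-1 clones, at 2495, 2133 and 2269.5 CPM against 3166, 2800.5 and 3238 CPM (-0.42 ± 0.10, adjusted p = 0.00515). The tubulin median was 0.06 and fell to -0.20 at its lowest, with a change of sign without lola[E76] replicate 2 or nerfin-1[159] replicate 3, in the fit of the 6 mutant libraries alone, at 10 CPM or more, with voom and with the replicate block. The lola count was 2 without any single WT library or lola[E76] replicate 1, and with no filter.

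Outside the lists, genes were named for large differences among well-counted genes whose libraries did not overlap. jef, a predicted membrane transporter, was 118, 105 and 109.9 CPM in lola, 0.283, 3.51 and 0 CPM in nerfin-1 and 1.89, 10.2 and 5.68 CPM in WT libraries (6.37 ± 0.60, adjusted p = 4.88e-07, 9.39 without nerfin-1[159] replicate 2). Cipc, a relative of a circadian repressor, was 104.3, 109 and 96.5 CPM in lola and 4.81, 3.26 and 6.66 CPM in nerfin-1 libraries (4.39 ± 0.30, adjusted p = 1.17e-08). AdamTS-B, a secreted metalloprotease, was 47.7, 37.5 and 78.0 CPM in lola, 3.68, 1.25 and 5.33 CPM in nerfin-1 and 0, 0.208 and 6.44 CPM in WT libraries (3.99 ± 0.72, adjusted p = 0.000635). All 3 were highest in lola clones, as by mean were CG33639 (3.58 ± 0.47, adjusted p = 2.79e-05), CG3168 (3.39 ± 0.63, adjusted p = 0.000794) and Rgk1, a small GTPase (3.35 ± 0.51, adjusted p = 0.000124; 4.53 without nerfin-1[159] replicate 2). Among nerfin-1-high genes Rnf11, a RING finger protein, was 30.2, 16.6 and 21.7 CPM in lola, 182, 201 and 278 CPM in nerfin-1 and 32.4, 21.0 and 21.0 CPM in WT libraries (-3.27 ± 0.24, adjusted p = 2.55e-08). The piRNA cluster transcript lncRNA:flam was 23.2, 15.9 and 13.9 CPM in lola, 92.6, 132 and 153 CPM in nerfin-1 and 23.8, 28.1 and 22.2 CPM in WT libraries (-2.83 ± 0.25, adjusted p = 1.87e-07). For both, lola and WT libraries stood together and nerfin-1 libraries alone were high. CG13907 (-3.02 ± 0.22, adjusted p = 2.29e-08), CG15646 (-2.85 ± 0.32, adjusted p = 4.04e-06), CG8858 (-2.71 ± 0.38, adjusted p = 5.6e-05), bip1 (-2.69 ± 0.53, adjusted p = 0.00145) and the proteoglycan gene wdp (-2.89 ± 0.58, adjusted p = 0.00157; -4.25 without lola[E76] replicate 3 and -2.21 without nerfin-1[159] replicate 2) followed.

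Most called ribosomal protein genes differed by small folds. Of 78 cytoplasmic ribosomal protein genes, gathered by symbol, 34 were higher in lola and 1 in nerfin-1 clones, 74 of 78 differences were positive, and the median was 0.25. Their summed level was 131614, 121243 and 124930 CPM in lola libraries, 105037, 97666 and 108773 CPM in nerfin-1 libraries and 110169, 108667 and 113764 CPM in WT libraries. The lola libraries were highest, without overlap, and the lola count was 19 without lola[E76] replicate 1 and 21 without nerfin-1[159] replicate 2. RpS12 (0.69 ± 0.11, adjusted p = 0.000137), RpL23A (0.58 ± 0.11, adjusted p = 0.0011) and RpL3 (0.56 ± 0.09, adjusted p = 0.000146) differed most among the lola-high members, and RpS5b, the germline-enriched copy of RpS5a, was the nerfin-1-high member (-3.67 ± 0.76, adjusted p = 0.00212). Close copies of ribosomal genes share reads, and their values are uncertain for that reason. Mitochondrial ribosomal proteins gave 2 of 70 against 1 (median 0.08), and these calls were unstable. Their shares, 2.86% and 1.43%, were below the 8.58% and 6.94% of all tested genes. Leaving out lola[E76] replicate 1 or using voom took the lola count to 0, and it was 1 with the replicate block or without nerfin-1[159] replicate 1 or 3. The nerfin-1 count was 0 in 11 of the 17 alternatives, among them each that left out a WT library, replicate 1 or 3 of lola[E76], or the same numbers of nerfin-1[159]. In the nucleolar list only Nopp140, a nucleolar chaperone, was called of 20, at 63.6, 55.6 and 62.1 CPM in lola and 25.8, 24.1 and 29.6 CPM in nerfin-1 libraries (1.19 ± 0.22, adjusted p = 0.00076). The lola-high share of the nucleolar list, 5.00%, was below the 8.58% of all tested genes. The list median of -0.07 became 0.04 without nerfin-1[159] replicate 2, when 2 members were called, and Myc itself averaged 180.4 and 212 CPM without a call.

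Oxidative phosphorylation genes gave 3 of 22 higher in lola clones, with 20 positive differences and a median of 0.15. The count was 5 with DESeq2 size factors or no filter, and 6 with library size scaling, at 10 CPM or more and with DESeq2's test. They were ATPsynO (0.60 ± 0.14, adjusted p = 0.00545), COX6B (0.50 ± 0.13, adjusted p = 0.00893) and ND-15, whose call did not hold on leaving out WT replicate 3, lola[E76] replicate 1, 2 or 3, nerfin-1[159] replicate 1 or 2 and with the replicate block (adjusted p = 0.05 to 0.135). In glycolysis 1 of 12 was higher in lola and 3 in nerfin-1 clones (median -0.34). Eno, enolase, was 254, 224 and 219 CPM in lola and 141, 141 and 119.9 CPM in nerfin-1 libraries (0.80 ± 0.13, adjusted p = 0.000291). The calls of Pfk, Gapdh2 and Hex-A each depended on single libraries. Pfk (-2.25 without lola[E76] replicate 3) had no call on leaving out WT replicate 2 or 3, lola[E76] replicate 1 or 2, nerfin-1[159] replicate 1, 2 or 3 and in the fit of the 6 mutant libraries alone (adjusted p = 0.053 to 0.119). Gapdh2 had no call on leaving out WT replicate 2 or 3, lola[E76] replicate 1, 2 or 3, nerfin-1[159] replicate 1, 2 or 3, with library size scaling, in the fit of the 6 mutant libraries alone and with the replicate block (adjusted p = 0.0528 to 0.194), and Hex-A on leaving out WT replicate 2, lola[E76] replicate 2 or 3, nerfin-1[159] replicate 1 or 2, with library size scaling, in the fit of the 6 mutant libraries alone and with the replicate block (adjusted p = 0.05 to 0.184). Ldh, lactate dehydrogenase, averaged 28.4 CPM in lola, 65.6 in nerfin-1 and 7.32 in WT clones without a call. The nerfin-1 count of glycolysis was thus 0 or 1 in each leave-one-out fit except those without WT replicate 1 and lola[E76] replicate 3.

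Death and damage genes went both ways. Of 17 tested, 3 were higher in lola and 4 in nerfin-1 clones (median 0.27). The inducers hid (0.86 ± 0.21, adjusted p = 0.007) and skl and the JNK phosphatase puc were higher in lola clones, with puc at 143, 189 and 231 CPM against 112, 86.3 and 85.0 CPM (0.99 ± 0.18, adjusted p = 0.000746). Of the 4 members higher in nerfin-1 clones, the caspase gene Drice was at 11.1, 7.54 and 18.5 CPM in lola and 38.8, 26.6 and 33.1 CPM in nerfin-1 libraries (-1.40 ± 0.32, adjusted p = 0.00498), and Dark, the apoptosome core, had 3 counts over the lola and 80 over the nerfin-1 libraries, a ratio of 31.4 in summed CPM (95% interval 10.4 to 155, counting error only; adjusted p of the Dark call = 0.0067, fitted log2 difference -4.84, -7.92 without lola[E76] replicate 2). Xrp1, a stress-induced bZIP factor, was 54.7, 62.1 and 59.4 CPM in lola, 145, 202 and 175 CPM in nerfin-1 and 135, 115 and 105 CPM in WT libraries (-1.57 ± 0.16, adjusted p = 1.91e-06), and the TNF ligand egr was also nerfin-1-high (-0.90 ± 0.24, adjusted p = 0.0125), with no call on leaving out lola[E76] replicate 1, nerfin-1[159] replicate 1 (adjusted p = 0.0512 to 0.0791). The skl call did not hold on leaving out lola[E76] replicate 1 or 2, nerfin-1[159] replicate 1, 2 or 3 (adjusted p = 0.0578 to 0.0763). In the heat shock list 1 of 11 was called, a lola-high share of 9.09%, near the 8.58% of all tested genes. It was Hsp23, a small heat shock protein, at 1020.5, 1016 and 1360.3 CPM in lola and 877, 509.7 and 768 CPM in nerfin-1 libraries (0.66 ± 0.16, adjusted p = 0.00654). Hsp23 was not called on leaving out lola[E76] replicate 3 (adjusted p = 0.0534). Hsp27 was 4557, 4410.4 and 5297 CPM in lola and 5647, 3959 and 4704 CPM in nerfin-1 libraries, which overlapped. The list median was 0.00, from -0.12 to 0.16 over the alternatives, with a change of sign without nerfin-1[159] replicate 2 or 3, and 1 member was called nerfin-1-high without nerfin-1[159] replicate 2.

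Neuroepithelium and lamina genes, markers of other optic lobe tissue, gave 2 of 13 higher in lola and 3 in nerfin-1 clones (median -0.07, changing sign without lola[E76] replicate 3 or nerfin-1[159] replicate 1 or 3). sim, Single-minded, was 24.4, 19.8 and 18.1 CPM in lola, 0.566, 0 and 1.60 CPM in nerfin-1 and 25.7, 16.2 and 15.5 CPM in WT libraries (4.81 ± 0.60, adjusted p = 1.53e-05; 4.22 without nerfin-1[159] replicate 2 and 6.13 without nerfin-1[159] replicate 3). dac, Dachshund, was 31.0, 29.7 and 36.0 CPM in lola and 88.9, 54.4 and 52.8 CPM in nerfin-1 libraries (-1.02 ± 0.22, adjusted p = 0.00335), with WT at 62.4, 81.6 and 77.1. ed, an adhesion protein, averaged 309.8 and 493 CPM (-0.67 ± 0.12, adjusted p = 0.000606). sim was therefore at the WT level in lola clones and near 0 in nerfin-1 clones, and dac was nearer to WT in nerfin-1 clones. The summed level of dac, sim, eya and tll was 60.1 to 70.9 CPM in lola, 65.4 to 119.8 in nerfin-1 and 113 to 119 in WT libraries.

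Other cell types were read from their own lists. Of 14 tested glial genes 3 were higher in lola and 1, Eaat1, in nerfin-1 clones (median -0.23, and 0.05 at its highest, with a change of sign without lola[E76] replicate 2). wrapper, a glial surface protein, was 25.4, 19.2 and 8.71 CPM in lola and 0, 1.504 and 2.67 CPM in nerfin-1 libraries (3.63 ± 0.80, adjusted p = 0.00353, 4.46 without nerfin-1[159] replicate 3). repo, which defines glia, was 0, 0.215 and 6.93 CPM in lola and 4.25, 6.27 and 3.47 CPM in nerfin-1 libraries, without a call. Nearly all lola counts of repo came from replicate 3. The summed level of 5 glial markers overlapped, at most 72.1 CPM in lola and 56.0 to 62.6 in nerfin-1 libraries, and the part of glia in these calls was not tested. The other glial calls, bnb and moody, were less stable, with bnb not called on leaving out lola[E76] replicate 2, nerfin-1[159] replicate 2 (adjusted p = 0.0963 to 0.109) and moody not called on leaving out WT replicate 1, 2 or 3, lola[E76] replicate 1, 2 or 3, nerfin-1[159] replicate 1 or 3, with no filter, in the fit of the 6 mutant libraries alone and with the replicate block (adjusted p = 0.0533 to 0.156). The lola count was 1 without lola[E76] replicate 2, and the nerfin-1 count was 0 without nerfin-1[159] replicate 1. In the haemocyte and fat body list 4 of 14 were testable and only Col4a1, type IV collagen, was called, at 39.4, 20.3 and 28.6 CPM in lola, 188, 254 and 266 CPM in nerfin-1 and 1.62, 6.46 and 7.201 CPM in WT libraries (-3.01 ± 0.28, adjusted p = 4.88e-07). The haemocyte marker NimC1 was at 0 in every library of both mutants and of WT. Hml, another, had 12, 15 and 2 counts in lola, 8, 2 and 0 in nerfin-1 and 1, 0 and 1 in WT libraries. The 5 haemocyte and fat body markers summed to at most 6.68 CPM in lola, 4.00 in nerfin-1 and 5.21 in WT libraries. The part of these cell types in the Col4a1 call was not tested. The median of the 4 was 0.31 and turned negative without lola[E76] replicate 1. Of 3 testable eye disc genes Ama, an immunoglobulin protein, was 39.9, 37.7 and 27.9 CPM in lola and 18.4, 3.76 and 1.60 CPM in nerfin-1 libraries, and its call did not hold on leaving out lola[E76] replicate 2, nerfin-1[159] replicate 2 or 3 and with DESeq2 (adjusted p = 0.0526 to 0.105), with log2 differences of 3.69 without nerfin-1[159] replicate 1. The eye disc median was 1.68, and 2 members were called without lola[E76] replicate 1. The 8 Hox genes listed, which mark more posterior neurons, were too low to test, and 4 of them summed to at most 5.08 CPM in lola and 2.51 in nerfin-1 libraries.

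**Figure D4:**
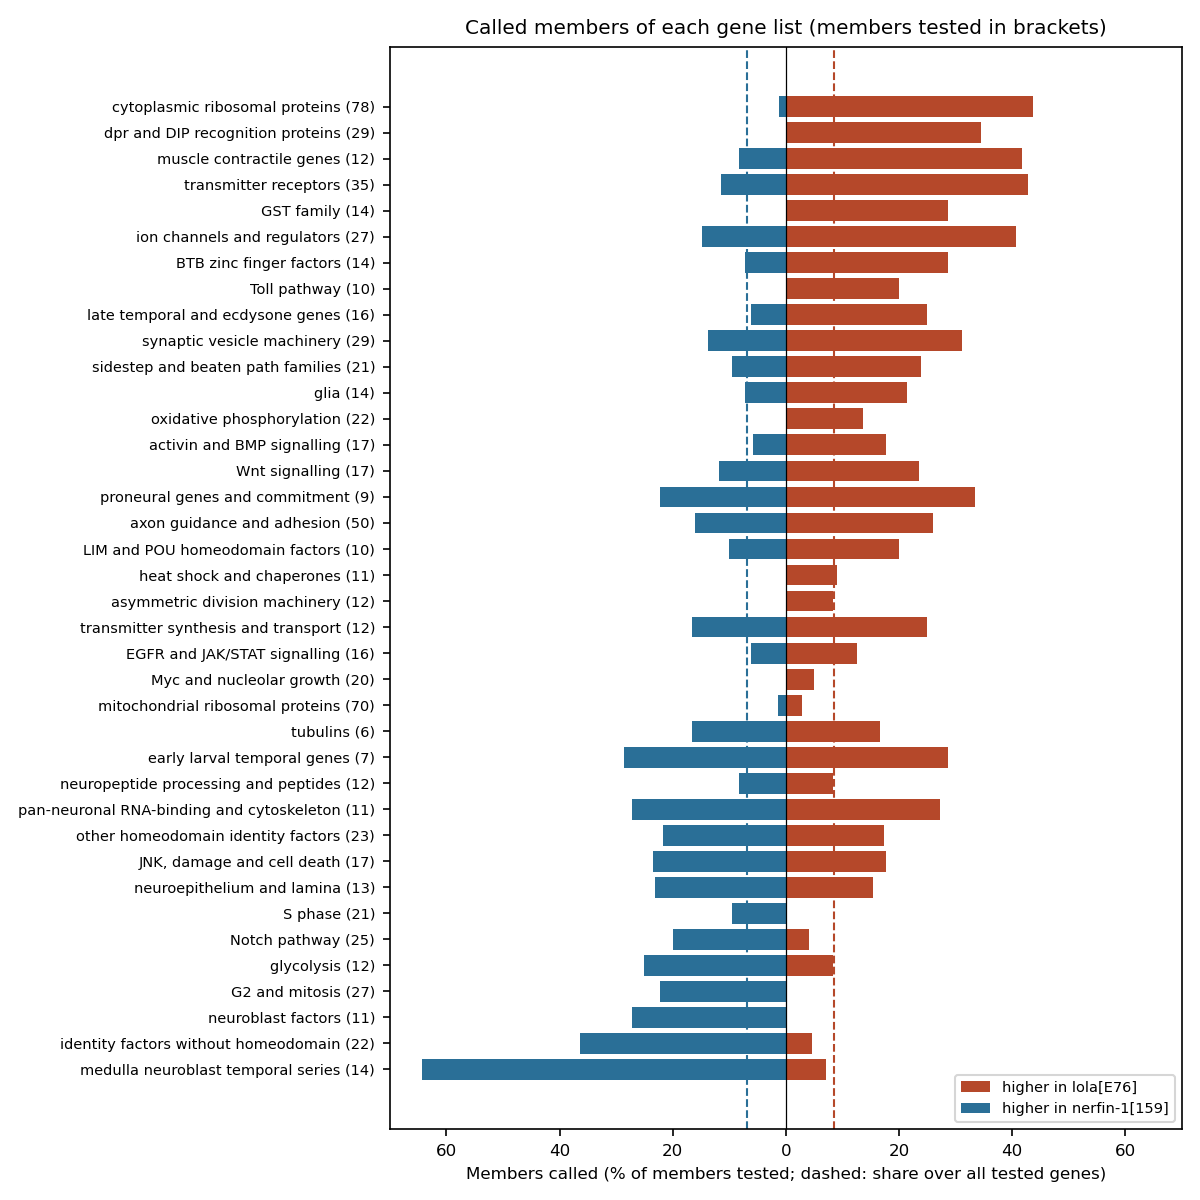
Share of the tested members of each gene list with at least 5 tested members (number in brackets) that were called higher in lola[E76] (red, to the right) or in nerfin-1[159] (blue, to the left), in percent, with dashed lines at the shares over all tested genes (8.58% and 6.94%). Ribosomal, dpr and DIP, muscle, receptor and channel genes reach farthest towards lola[E76], and the medulla temporal series and identity factors without a homeodomain reach farthest towards nerfin-1[159].

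The position of WT was read without a test, as the nearer of the 2 mutant means on the log2 CPM scale. Among the 639 genes higher in lola clones WT was nearer to lola for 423 (66.2%), and among the 517 higher in nerfin-1 clones it was nearer to lola for 302 (58.4%). WT lay between the mutants for 424 and 365 of them, above both for 157 and 59, and below both for 58 and 93. WT was nearer to lola for 13 of 15 lola-high receptors, 9 of 11 channels, 9 of 9 synaptic genes and 8 of 10 dpr and DIP genes. Exceptions included the 5 lola-high muscle genes, for all of which WT was nearer to nerfin-1, and 22 of the 34 lola-high ribosomal protein genes. WT was also nearer to nerfin-1 for all 3 lola-high death and damage genes and the 2 lola-high Toll genes. The same held for 2 of 3 lola-high activin and BMP genes and 2 of 3 lola-high glial genes. Both mutants are set against the same WT libraries here. WT shares its column tag with the lola libraries and not with the nerfin-1 libraries. Nearness of WT to lola therefore cannot be told apart from a shared background.

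By chromosome arm, as the RefSeq table of Release 6 places the genes, every arm held calls in both directions. On 2R, which carries lola, 9.86% of tested genes were higher in lola and 6.50% in nerfin-1 clones. On 3L, which carries nerfin-1, the shares were 7.40% and 7.26%. On 2L they were 8.72% and 8.64%, on 3R 8.17% and 5.50%, and on X 9.13% and 6.01%. The small chromosome 4 differed, with 5 of 85 tested genes higher in lola (5.88%) and 14 in nerfin-1 clones (16.5%), a nerfin-1 share of 12.8 to 19.4% under the alternatives. Its nerfin-1-high genes included Rnf11, CG11155, Actbeta, mGluR, ey, bt and pan, several of them described above. Large called differences, above 3 on the log2 scale, numbered 33 on 2R in lola clones against 10 in nerfin-1 clones. On 3L the counts were 10 against 11, on 3R 24 against 5, on X 18 against 4 and on 2L 20 against 20. Chromosome 4 had 0 against 2. 2R thus held the highest lola-high share and the most large lola-high differences of any arm. Large differences on 3R and X also leaned towards lola clones, and those on 2L and 3L did not. The part of chromosome background in these shares was not tested. roX1 and roX2, X-linked dosage compensation RNAs made mostly in males, were not called (adjusted p = 0.125 and 0.063 for lncRNA:roX1 and lncRNA:roX2).

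**Figure D5:**
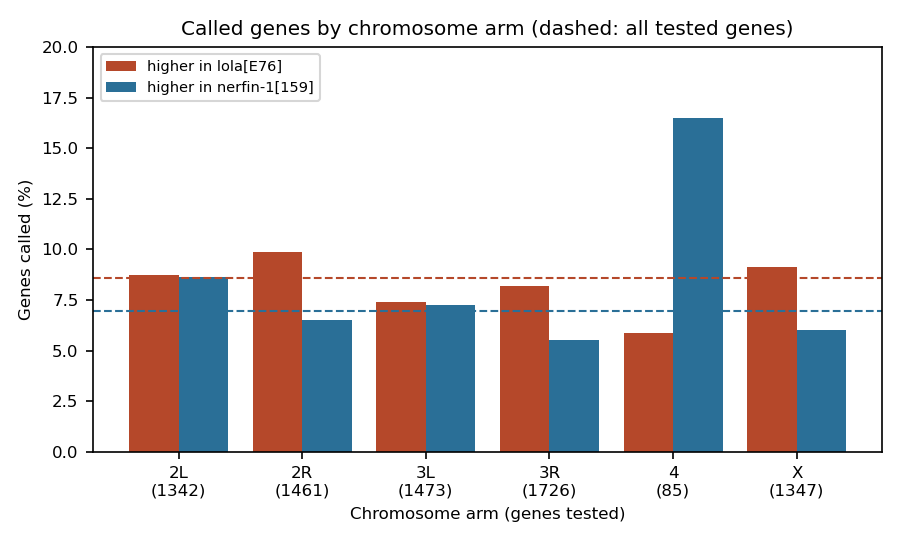
Percent of tested genes on each chromosome arm (number tested in brackets) called higher in lola[E76] (red bars) or in nerfin-1[159] (blue bars), with dashed lines at the shares over all tested genes. Chromosome 4, with 85 tested genes, has a nerfin-1 bar of 16.5% against 6.94% over all genes, and no other arm's nerfin-1 bar exceeds 8.64%.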

How the data were processed

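The RNA table deposited by the authors holds raw counts per gene, and per the submitters' processing notes Subread, featureCounts and limma were used, without versions or roles. No label or header states the strand setting, genome build or annotation, so overlapping and antisense genes are uncertain. All columns matched a labelled library. Of 17633 genes 33 had no symbol (at most 0.00852% of counts). DamID peak lists were not used here.

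In edgeR 4.0.16 under R 4.3.3, genes passing filterByExpr were scaled by TMM and fitted by quasi-likelihood with 1 mean per genotype over all 9 RNA libraries. The contrast was tested two-sided, with Benjamini-Hochberg adjustment over 7451 genes and a threshold of 0.05. CPM are TMM-scaled, log2 CPM carry a prior count of 2, and standard errors are the absolute difference over the square root of F. On data simulated for this contrast with 7223 genes, 31% of changes of log2 1 and 66% of log2 2 were recovered, with 3 false calls.

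The 38 gene lists (729 entries, 706 matched by symbol, 18 by synonym, 5 not matched, 599 distinct genes tested) and the compared libraries were chosen with earlier results of these data known. The ribosomal and GST families were gathered later by symbol. Genes were named by rule: elav, pros, dpn, Imp, Syp, chinmo and the mutated genes, the 12 largest differences each way among called genes whose libraries did not overlap (mean log2 CPM 3 or more), and up to 5 called members per list, with the 2 most abundant in lists with fewer calls. Other members are named with values only. Some genes that the rule names are not reported here. Histone and Hsp70 copies, which share reads, were left out of the largest. Replicate numbers did not pair libraries: deviations correlated at -0.0126 to 0.0232 between the same numbers. Alternatives used DESeq2 1.42.0 and limma 3.58.1, and tables and figures Python 3.11.15, pandas 2.3.3 and matplotlib 3.10.9.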

Additional observations from a re-analysis of the deposited data

How the results depend on the processing

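The count of 1156 called genes stayed within 1.5 times its value in all 17 alternatives. It was 1157 with DESeq2 size factors, 1148 with library sizes alone, 1256 with no filter (12211 genes tested), 1092 at 10 CPM or more in 3 libraries (5276 tested), 1371 with DESeq2's test, 1109 with limma voom and 1033 from the 6 mutant libraries alone. With the replicate block it was 1080 (598 higher in lola and 482 in nerfin-1 clones), and 2 of 6 mutant libraries correlated best with their own number. Leaving out each library gave 889 (without nerfin-1[159] replicate 3) to 1135 calls, of which 476 to 628 were higher in lola and 413 to 507 in nerfin-1 clones. Lola's share of the calls ran from 52.3 to 59.6%, against 55.3%. Of 219 called genes of the lists or the naming rule, 157 were called under every alternative, 60 lost the call when some library was left out and 2 only otherwise, while 80 of 396 that were not called gained one somewhere. None of these 219 reversed in direction. Depth limits low genes, since 3 counts equal 0.568 to 0.849 CPM, and 10182 genes could not be tested.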

Other observations

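Glutathione S-transferases, detoxifying enzymes gathered by symbol after the data were seen, gave 4 called members of 14 tested, all higher in lola clones, with a median of 0.49 and a lola count of 2 without nerfin-1[159] replicate 1.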
